A study of Mus musculus with 70 samples.

Results

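The opioid system is described here by 7 genes, the peptide precursors Penk, Pdyn and Pnoc and the receptors Oprm1, Oprd1, Oprk1 and Oprl1, which were taken by name from the 34677 genes of a TPM (length-scaled transcript abundance) table. All 7 were present in the table and all 7 passed the filter on low counts, under which 19980 genes were tested. Their levels were compared over 24 groups of mouse libraries: 18 adult brain regions, 4 embryonic brain regions and 2 lines of mouse embryonic stem cells (mESC).

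Opioid peptides are cut out of larger precursor proteins at pairs of basic residues and act on receptors that couple to inhibitory G proteins, which lower cyclic AMP and open potassium channels. Penk encodes the precursor of the enkephalins, Pdyn that of the dynorphins and Pnoc that of nociceptin. Oprm1, Oprd1 and Oprk1 encode the mu, delta and kappa receptors, and Oprl1 encodes the nociceptin receptor, a relative that binds the classical opioids poorly. The system is known for its part in pain relief, reward and the liking of food, and in the hypothalamus for the control of feeding and of hormone release.

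The family resemblance of the precursors lies in a short core at the start of each peptide, and the copies in the reference coding sequences are shown because they tell the precursors apart. The core was searched in frame on the coding strand as the codons TAN, GGN, GGN and TTN of tyrosine, 2 glycines and phenylalanine, with C or T closing the first and last codon, and for Pnoc as TTN, GGN, GGN and TTN, which opens with phenylalanine. Capitals mark the core, with 2 codons before it and 3 after it, from transcripts of build GRCm38 (GENCODE M21).
Penk copy 1: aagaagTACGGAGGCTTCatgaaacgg
Penk copy 2: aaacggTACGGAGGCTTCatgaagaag
Penk copy 3: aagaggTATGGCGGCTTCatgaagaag
Penk copy 4: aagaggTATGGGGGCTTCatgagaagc
Penk copy 5: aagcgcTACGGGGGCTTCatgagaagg
Penk copy 6: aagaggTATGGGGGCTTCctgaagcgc
Penk copy 7: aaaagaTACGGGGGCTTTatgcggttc
Pdyn copy 1: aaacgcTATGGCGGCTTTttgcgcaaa
Pdyn copy 2: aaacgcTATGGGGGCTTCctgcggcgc
Pdyn copy 3: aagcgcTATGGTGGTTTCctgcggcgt
Pnoc copy 1: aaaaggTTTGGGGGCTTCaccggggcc

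Penk held 7 copies of the tyrosine core, more than any other of 21562 coding sequences, Pdyn held 3 and Pnoc none, with 1 phenylalanine core instead. Of all coding sequences, 0.329% held the tyrosine core at least once and 0.496% the phenylalanine core. In Penk the codon after the core was methionine (atg) in copies 1 to 5 and 7, as in met-enkephalin, and leucine (ctg) in copy 6, as in leu-enkephalin, whereas all 3 Pdyn copies were followed by a leucine codon. Every copy shown was preceded by 2 codons of basic residues, lysine or arginine. The fourth precursor gene, Pomc, is no member but is counted with the pathway below. A match is a reading of the reference letters only, and no expression value depends on it.

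The genes lie apart in build GRCm38. Penk is on chromosome 4 from 4133531 to 4138819 (minus strand), Pdyn on chromosome 2 from 129686565 to 129699844 (minus), Pnoc on chromosome 14 from 65400673 to 65425472 (minus), Oprm1 on chromosome 10 from 6758506 to 7038198 (plus), Oprd1 on chromosome 4 from 132110726 to 132144486 (minus), Oprk1 on chromosome 1 from 5588466 to 5606131 (plus) and Oprl1 on chromosome 2 from 181715016 to 181720985 (plus). Values cover the exons of all annotated transcripts. Oprm1 overlaps Ipcef1 on the opposite strand, which reached 61.6 TPM, and whether the counting used strand is not given in the sources used here.

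RNA was taken from untreated mice, given as C57BL/6 in the labels and as C57BL/6NTac in the study's methods. The adult groups were P56 males: 3 cortical areas (anterior cingulate area ACA, frontal pole FRP, entorhinal area ENT), nucleus accumbens (ACB), 5 hypothalamic nuclei (arcuate ARH, dorsomedial DMH, paraventricular PVH, ventromedial VMH, and the lateral hypothalamic area LHA), ventral tegmental area (VTA), 3 hindbrain groups (dorsal vagal complex DVC, nucleus of the solitary tract NTS, parabrachial nucleus PB) and 5 cerebellar regions (cerebellar nuclei CBN, central lobule CENT2, culmen CUL4-5, flocculus FL, uvula UVU). The embryonic groups were E14.5 forebrain (F), midbrain (M), hindbrain (H) and terminal with peduncular hypothalamus (THy-PHy), and the mESC lines were 2 clones derived from C57BL/6 mice, B6-1 and B6-2. Each group had 2 to 4 libraries apart from F with 1, and each brain library pooled tissue punches of several mice or embryos, apart from 1 ACB library from a single mouse, which the labels do not mark.

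There were fewer mice than the adult pools would need if none were shared, so pools of different regions share mice, and p-values measure the spread between pools and not between independent animals. Samples were collected in several batches that are not given for each library here, so no value within a batch could be computed, and an effect of stage cannot be told apart from one of batch. The total count per library was 9074581 to 22229582, with a median of 17016935. Mitochondrial genes took 39.6% of the TPM of VTA replicate 1 and 22.6% of that of H replicate 1, where the median library had 7.49%, and means without them, an alternative chosen after the data had been seen, are given for Penk, Pnoc, Oprk1 and Oprl1. Of the markers fixed for a region, both of ARH (Agrp, Pomc), both of LHA (Hcrt, Pmch), both of VTA (Th, Slc6a3) and all 5 of striatum were highest in that region, whereas Dbh was highest in PB, Calca in DVC, and Sim1 and Fezf1 in THy-PHy. VMH also held Hcrt, the orexin precursor of LHA, at 659 and 939 TPM, and ARH held 6 of 6 pituitary markers in every library, with a summed level of 76.1 to 117 TPM against a median of 3.63 TPM over the 14 adult hypothalamic libraries. Most of this sum was Cga, at 67.3, 93.7 and 75.8 TPM. Of the 6 markers, 4 were highest in ARH, while Prl and Gh were highest in ENT.

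**Figure D1:**
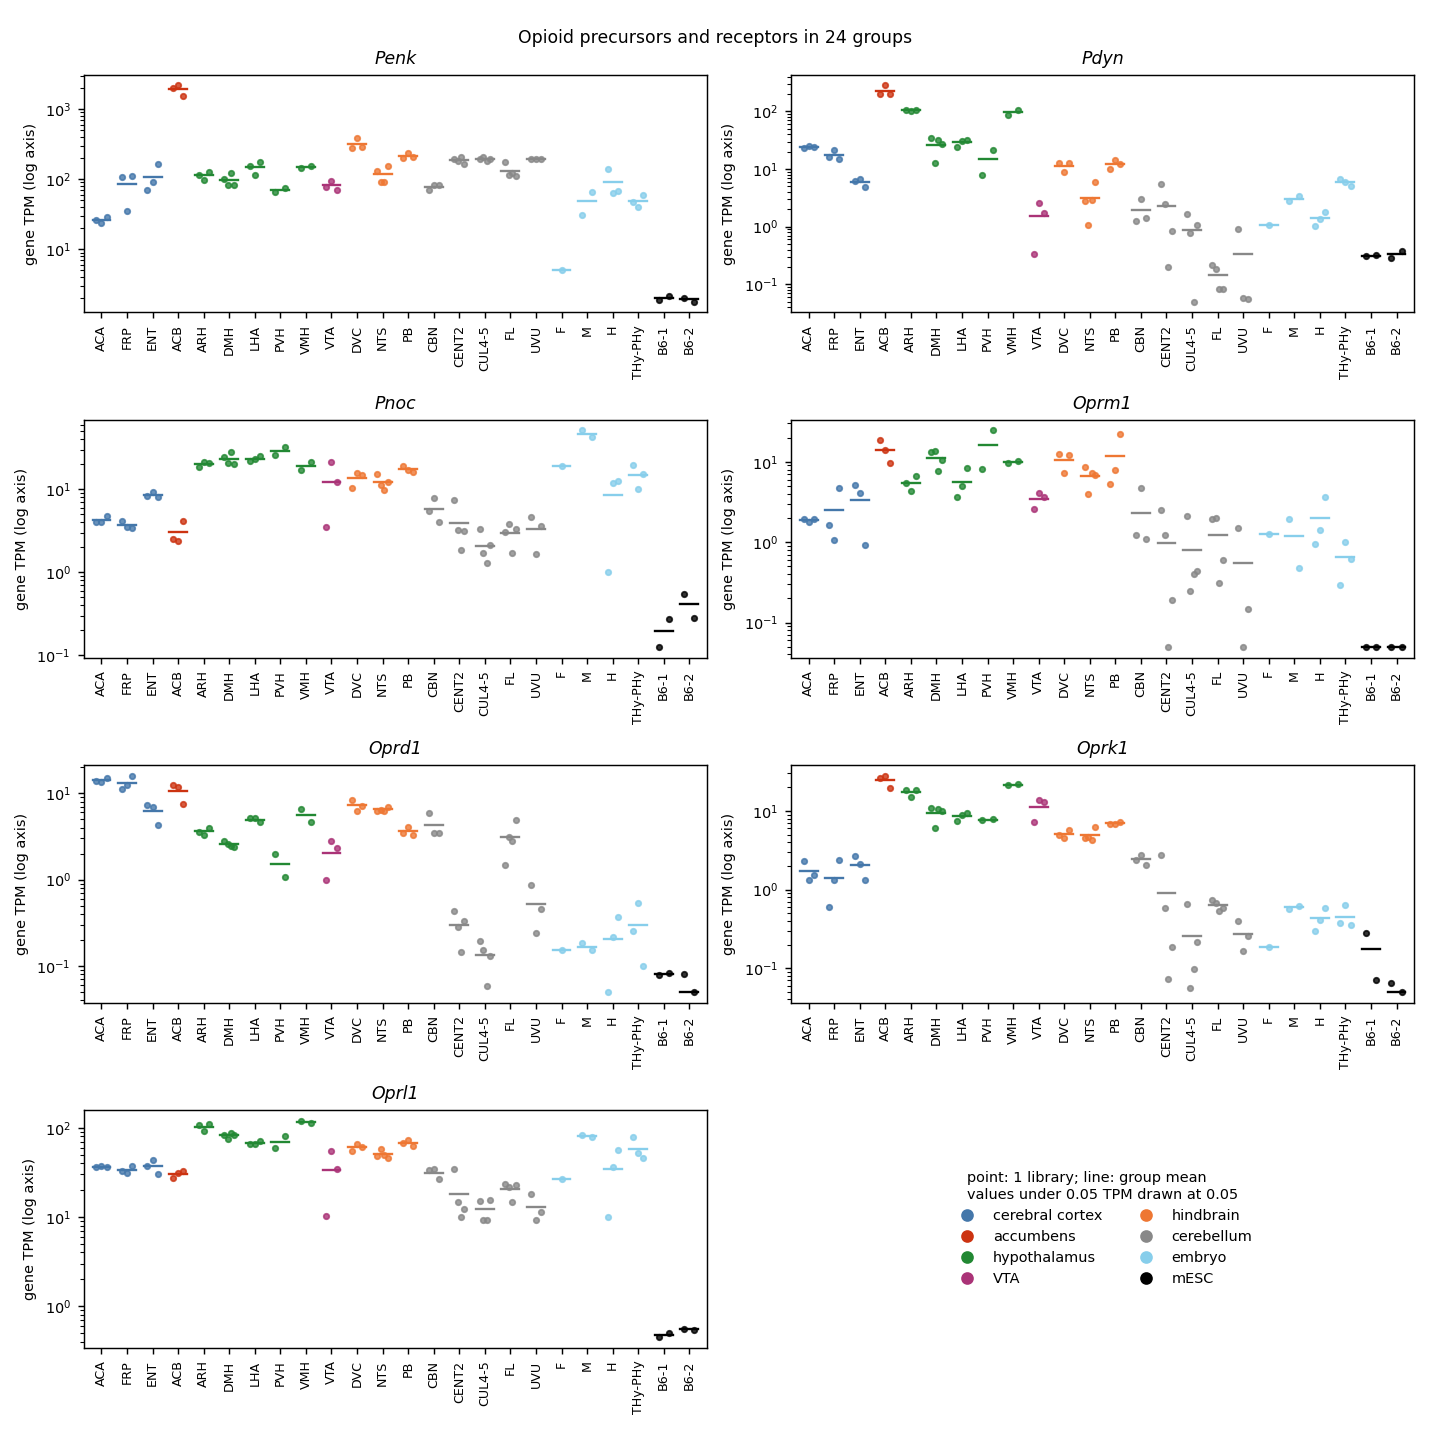
Gene TPM (log axis) of the 7 genes in each library (points) and the mean of each group (lines) over the 24 groups, with values under 0.05 drawn at 0.05. Penk in ACB stood at 1540 to 2193 TPM, above every other library, and in the mESC lines none of the 7 genes passed 2.15 TPM.

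Among the precursors, Penk was the most abundant in all 18 adult regions, with 47.6% of the summed TPM of the 3 precursors in ARH at the low end and 98.5% in CUL4-5 at the high end. Pdyn came closest in ACA (44.0%), ARH (43.9%) and VMH (36.3%). Pnoc reached its largest adult share in PVH (25.3%). In the embryo, Penk was highest in H and THy-PHy, and Pnoc was highest in F with 75.3% in 1 library. In M, Penk (49.2%) and Pnoc (47.7%) were too close to be put in order.

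Among the receptors, Oprl1 was the most abundant in all 18 adult and all 4 embryonic regions. Its share of the summed receptor TPM ran from 38.3% in ACB to 91.1% in CUL4-5 in the adult, and from 92.8% to 97.7% in the embryo. The classical receptors took their largest adult shares in forebrain regions: Oprk1 30.9% and Oprm1 17.6% in ACB, and Oprd1 26.2% in FRP.

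**Figure D2:**
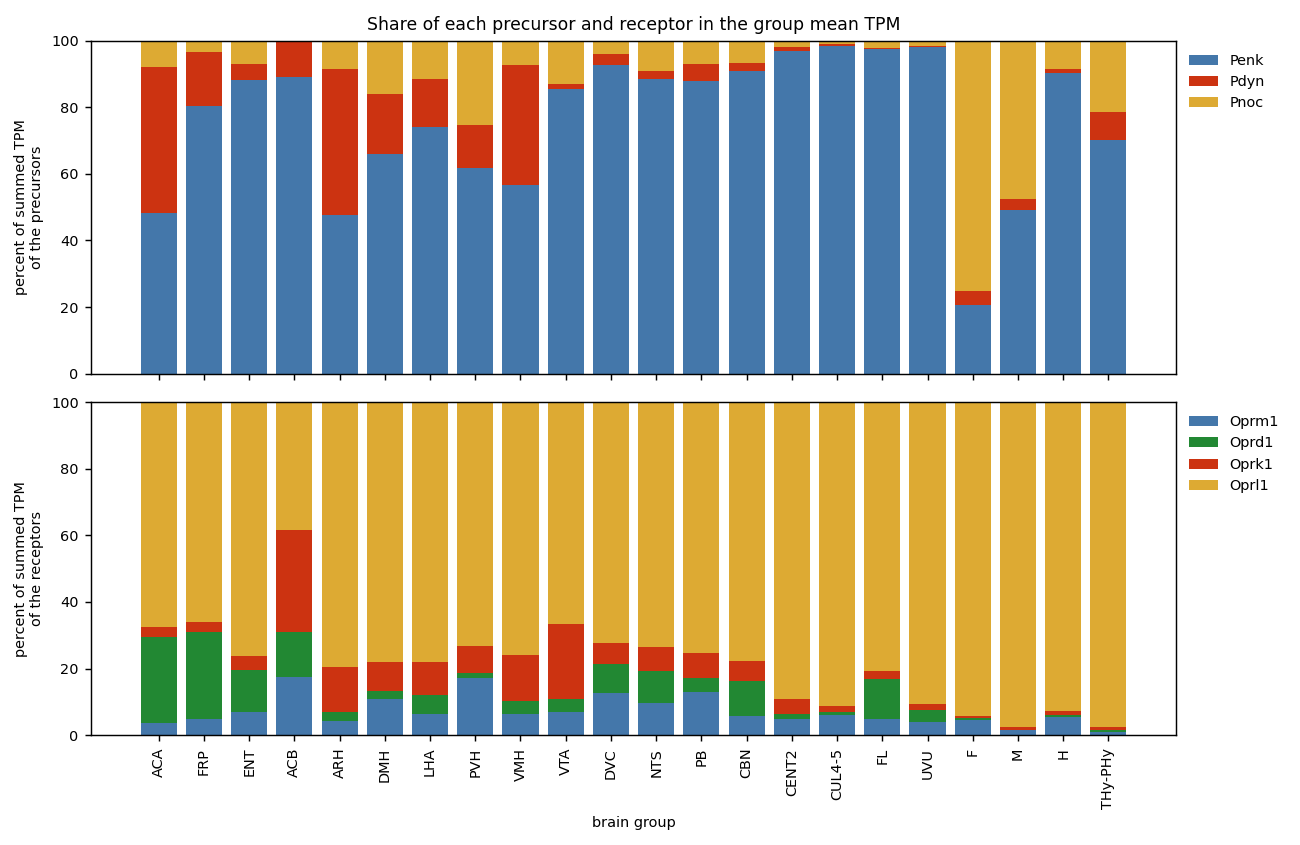
Percent of the summed group mean TPM held by each precursor (top) and each receptor (bottom) in the 22 brain groups, shown as stacked bars from 0 to 100. The adult Penk share ran from 47.6% in ARH to 98.5% in CUL4-5, and the adult Oprl1 share from 38.3% in ACB to 91.1% in CUL4-5.

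Penk, the enkephalin precursor, had the widest lead of 1 region over the next. In ACB the libraries held 2010.4, 2193 and 1540.2 TPM, a mean of 1914 ± 337 TPM (SD, n = 3), and in DVC, the next group, 276, 384 and 292 TPM, a mean of 317 ± 58.2 TPM (SD, n = 3). The ratio of these means was 6.03. No library of ACB came near any other library of the series.

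Below ACB, Penk fell from DVC through PB (216 ± 16.7 TPM, SD, n = 3) to UVU (195 ± 1.94, n = 3), CUL4-5 (195 ± 11, n = 4) and CENT2 (188 ± 18.2, n = 4), and these last 3 cerebellar lobules could not be put in order because their libraries overlapped. VMH, LHA, FL, NTS, ARH, ENT, DMH, H, FRP, VTA, CBN and PVH formed an unbroken run of overlapping neighbours from 150.0 down to 71.1 TPM. ACA stood low among adult regions, with 26.2, 24.1 and 29.1 TPM, below every other adult library. FRP, a nearby cortical area, varied more, with 109, 35.7 and 113 TPM. In H, replicate 1 was highest at 140.1 TPM, and the mean was 66.5 TPM without it and 91.0 with it. Over all 24 groups, 15 of 23 neighbours in the order of means overlapped.

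Pdyn, the dynorphin precursor, was also highest in ACB, with 199.6, 284 and 201 TPM (228 ± 48.6, SD, n = 3). ARH followed with 105, 104 and 107 TPM (105 ± 1.33, n = 3) and VMH with 87.4 and 105 TPM (96.3 ± 12.6, n = 2). ARH and VMH overlapped, while both stood clear of the third hypothalamic group, LHA, with 24, 30.2 and 32.6 TPM.

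DMH (26.6 ± 9.80 TPM, n = 4), ACA (24.1 ± 1.07, n = 3), FRP (17.4 ± 3.45, n = 3), PVH (14.8 ± 9.84, n = 2), PB (12.3 ± 2.14, n = 3) and DVC (11.4 ± 2.25, n = 3) held the middle of the range, where neighbours overlapped apart from ACA over FRP. In the cerebellum and VTA the gene was near its floor, with means of 0.143 TPM in FL to 2.27 TPM in CENT2, and CUL4-5 replicate 3 had a count of 0. From ACB to FL the means spanned a ratio of 1598, the widest of the 7 genes, with FL resting on counts of 2 to 4 per library.

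Within the hypothalamus Pdyn was set beside genes that its neurons are known to share. Kiss1 and Tac2, partners of Pdyn in the neurons that drive reproductive hormone release, were at 12.6 to 18.8 and 61.4 to 73.3 TPM in ARH, and Kiss1 was at 0 to 0.499 TPM in VMH. Hcrt, which dynorphin accompanies in orexin neurons, was at 915 to 1889.8 TPM in LHA. In PVH, replicate 1 held 7.81 TPM of Pdyn with 221 TPM of Avp (vasopressin) and 454 of Oxt (oxytocin), and replicate 2 held 21.7 TPM with 1069 and 2075 TPM. In ARH, Avp varied from 228 to 1904 TPM while Pdyn stayed between 104 and 107 TPM. The part of these companions in the Pdyn levels was not tested.

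Pnoc, the nociceptin precursor, was the only member with its highest mean in the embryo. M held 50.9 and 42.7 TPM (46.8 ± 5.75, SD, n = 2), above every other library, and PVH followed with 25.6 and 32.4 TPM (29.0 ± 4.83, n = 2). LHA, DMH, ARH and VMH lay within 19.1 to 23.3 TPM and overlapped, and so did F, PB, THy-PHy, DVC, VTA and NTS between 18.9 and 12.1 TPM. Levels were lower in cortex (3.69 to 8.56 TPM), in ACB (3.02 ± 0.986 TPM, n = 3) and in the cerebellum (2.09 to 5.79 TPM). The spread in VTA (3.52, 21.2 and 12.3 TPM) and in H (0.997, 11.8 and 12.6 TPM) came with the 2 libraries rich in mitochondrial transcripts, each of which was the lowest of its group. Without them the means were 16.8 TPM in VTA and 12.2 in H, against 12.4 and 8.45 with them.

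Oprm1, the mu receptor through which morphine acts, had its highest mean in PVH, but this order rested on a short transcript. The PVH libraries held 8.18 and 24.5 TPM, the ACB libraries 18.4, 13.9 and 9.76, and the PB libraries 5.34, 7.93 and 22.0. Libraries of all these groups overlapped, as did 20 of 23 neighbours in the order.

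In PVH replicate 2, a 242-base processed transcript of the gene, which has no coding sequence, took 9.43 estimated reads and 16.8 of the 24.5 TPM, and in PB replicate 3 it took 6.37 reads and 12.1 of 22.0 TPM. Over all libraries it held 1.70% of the estimated count of Oprm1, yet 34.4% of its TPM, and it was present in 31 libraries. Division by a short length turns a few reads into a large TPM value. Unless coding transcripts are named, the TPM values, shares, specificity index and correlations of Oprm1 cover all transcripts and carry this limit.

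Over protein-coding transcripts alone, Oprm1 was highest in ACB at 8.92 ± 0.690 TPM (n = 3), followed by PB at 7.57 ± 2.21 (n = 3), DMH at 7.20 ± 0.988 (n = 4), PVH at 6.81 ± 0.892 (n = 2) and DVC at 5.46 ± 1.05 (n = 3), all overlapping with their neighbours. CPM values, counts scaled to library size, which do not weight by transcript length, gave the same 4 groups in the lead, with 9.27 in ACB, 8.69 in PB, 8.63 in DMH and 8.11 in PVH. This alternative was chosen after the data had been seen. ACA, FRP, CBN and the cerebellar lobules held means of 0.178 to 1.01 TPM of coding transcripts, and estimated counts of Oprm1 were 0 in 1 library each of CENT2 and UVU.

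**Figure D3:**
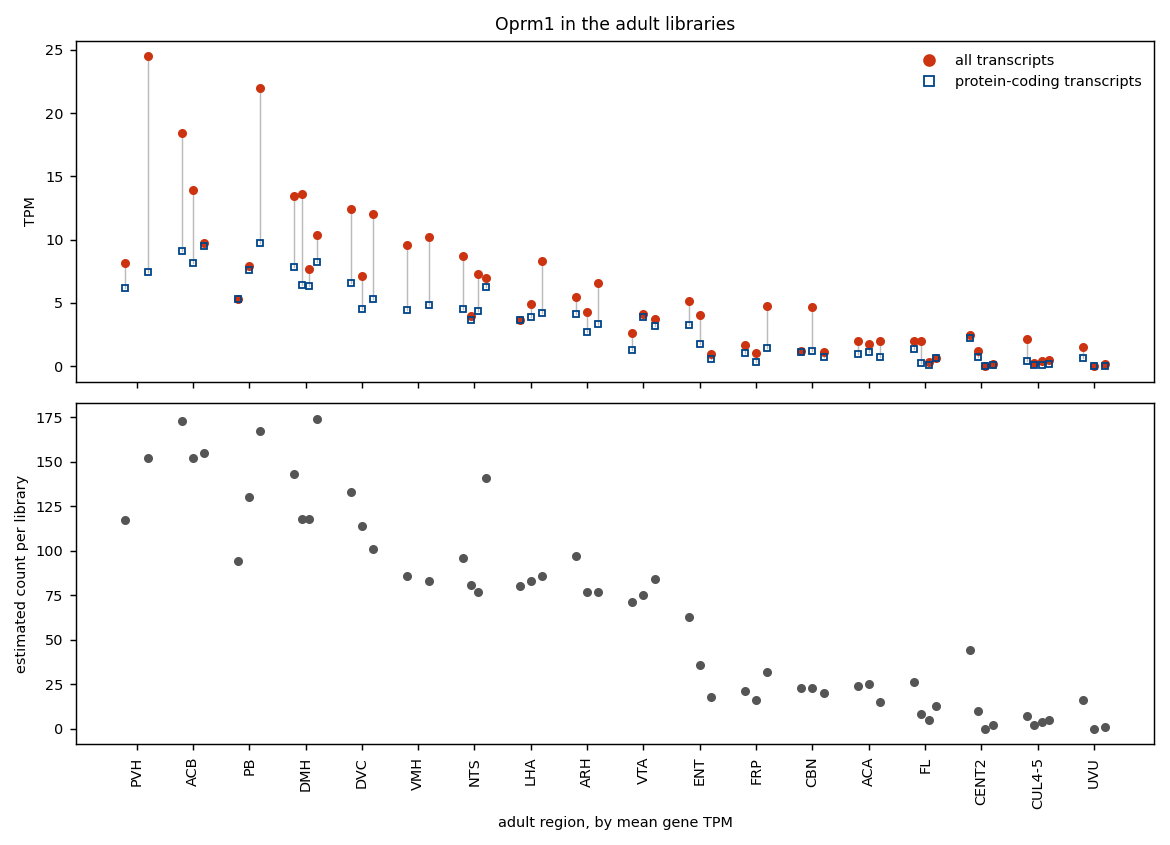
Oprm1 in the adult libraries by region, ordered by mean gene TPM: TPM of all transcripts and of protein-coding transcripts (top, joined for each library) and estimated count (bottom). The coding value of PVH replicate 2 was 7.44 TPM where all transcripts gave 24.5 TPM.

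Oprd1, the delta receptor, which enkephalins bind, was led by 2 cortical areas. ACA held 13.7, 13.7 and 14.9 TPM (14.1 ± 0.671, SD, n = 3) and FRP 11.3, 12.6 and 16.0 TPM (13.3 ± 2.46, n = 3). ACB followed with 12.48, 11.8 and 7.60 TPM, and each group overlapped with the next. The order then ran without a gap through DVC (7.32), NTS (6.5), ENT (6.22), VMH (5.62) and LHA (4.97) down to PVH (1.53 ± 0.630 TPM, n = 2), and the single gap lay between PVH and UVU. CENT2, CUL4-5 and UVU held 0.133 to 0.521 TPM, while FL and CBN, also in the cerebellum, held 3.09 ± 1.40 (n = 4) and 4.29 ± 1.43 TPM (n = 3).

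Oprk1, the kappa receptor for dynorphins, was highest in ACB at 25.9, 28.1 and 19.8 TPM (24.6 ± 4.34, SD, n = 3). VMH held 21.2 and 21.8 TPM (21.5 ± 0.470, n = 2) and overlapped with ACB, and ARH held 18.3, 15.2 and 18.6 TPM (17.4 ± 1.90, n = 3) and lay below both. VTA came next with 7.18, 13.7 and 12.97 TPM, a mean of 11.3 TPM, or 13.3 without replicate 1. The 3 groups in the lead for Oprk1 were the 3 in the lead for Pdyn, its ligand precursor. DMH, LHA, PVH, PB, DVC and NTS lay between 9.40 and 4.95 TPM, cortical areas between 1.42 and 2.03, and the cerebellar lobules between 0.258 and 0.906.

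Oprl1, the nociceptin receptor, was the most even of the 4 receptors. VMH held 119.7 and 113 TPM (116 ± 4.87, SD, n = 2), ARH 107, 92.2 and 109 TPM (103 ± 9.21, n = 3) and DMH 82.1 ± 5.08 (n = 4), and these 3 stood clear of each other. M (80.6 ± 3.02, n = 2) was as high as DMH within the spread. PVH, LHA, PB, DVC, THy-PHy and NTS overlapped from 69.9 to 50.6 TPM, and cortex, VTA, CBN and ACB from 37.3 to 30.5 TPM. The VTA libraries were spread, at 10.2, 55.4 and 34.5 TPM, the lowest being replicate 1, without which the VTA mean was 45.0 rather than 33.4 TPM. In H, at 10.01, 36.3 and 56.1 TPM, the mean was 46.2 TPM without replicate 1 and 34.2 with it. The lowest adult group, CUL4-5, still held 12.2 ± 3.53 TPM (n = 4), and the ratio of VMH to CUL4-5 was 9.49.

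A tau index of specificity, 0 for a gene at 1 level in all 18 adult regions and near 1 for a gene of a single region, placed Penk (0.929) above 97.9% and Pdyn (0.909) above 97.1% of 17955 genes. Oprk1 (87.6%), Oprd1 (81.5%), Oprm1 (80.1%), Pnoc (77.0%) and Oprl1 (74.6%) were lower in that ranking. The mESC lines held at most 2.15 TPM of Penk, 0.559 of Oprl1, 0.550 of Pnoc and 0.378 of Pdyn in a library. Counts of the 4 receptors there were at most 10, too few to show differences between the clones.

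Comparisons between groups used edgeR's quasi-likelihood test on estimated counts, weighting regions equally on the log2 scale. A gene was called where its log2 fold change passed 1 in either direction and its Benjamini-Hochberg adjusted p was below 0.05. Negative values are lower in the first group. The SE beside a fold change was not taken from the fitted coefficients. It was derived as the absolute log2 fold change over the square root of the test's F statistic. In these bulk tissue pieces, fewer cells of a type and less RNA per cell cannot be told apart.

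ACB against the 17 other adult regions asked which members mark the ventral striatum, part of the reward system. Both precursors of classical opioids and all 3 classical receptors were higher there, and Pnoc was lower. These 6 of 7 members were called where 12.8% of all tested genes were called. Penk was higher by a log2 fold change of 3.99 ± 0.14 (SE; adjusted p = 2.8e-30), with 1540 to 2193 TPM in 3 libraries against 24.1 to 384 TPM in 54. Pdyn was higher by 5.22 ± 0.20 (adjusted p = 1.9e-28), with 199.6 to 284 TPM against 0 to 107. These were the 2 members whose ACB libraries did not overlap with any other adult library. The share of all genes without such overlap is not given here.

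Among the receptors in ACB, Oprk1 was higher by 2.99 ± 0.21 (adjusted p = 1.8e-17), Oprd1 by 1.91 ± 0.18 (adjusted p = 9.7e-13) and Oprm1 by 1.90 ± 0.34 (adjusted p = 5.2e-06). Pnoc was lower with a log2 fold change of -1.61 ± 0.31 (adjusted p = 2.6e-05), with 2.51, 2.40 and 4.16 TPM. Oprl1 had a log2 fold change of -0.47 ± 0.20 (adjusted p = 0.0497) and was not called, being under the fold threshold. All 5 striatal markers, among them the dopamine receptors Drd1 (119 to 157 TPM) and Drd2 (122 to 159 TPM), were highest in ACB, with a summed level of 2010 to 2670 TPM. Cortical markers summed to 27.1 to 323 TPM in the same libraries, and their part in the result was not tested.

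Of 36 other genes of the pathway, 6 were called higher and 6 lower in ACB, with a median log2 fold change of -0.06. Rgs9, a brake on G protein signals that is enriched in striatum, was higher by 4.96 ± 0.11 (adjusted p = 3.3e-38). Adcy5, a cyclase that opioid receptors inhibit, was higher by 3.13 ± 0.09 (adjusted p = 5.5e-35). Kcnj3, a subunit of the potassium channel opened by these receptors, was lower at -1.40 ± 0.16 (adjusted p = 1.3e-10), and Ace, a peptidase that can cut enkephalins, at -2.07 ± 0.29 (adjusted p = 5.4e-08). The convertase Pcsk1 had -1.03 ± 0.16 (adjusted p = 4.0e-07) but was no longer called without ACB replicate 1 (-0.85) or in limma on TPM (-0.96).

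The 5 hypothalamic nuclei against the 13 other adult regions addressed the seat of homeostatic control. Pdyn, Oprk1, Pnoc, Oprm1 and Oprl1 were called higher, 5 of 7 members, where 8.84% of all tested genes were called and 6.11% were called higher. Pdyn rose most, by 3.28 ± 0.17 (adjusted p = 5.0e-23), with 7.81, 32.2 and 107 TPM as lowest, median and highest of 14 libraries. Oprk1 held 5.98, 10.3 and 21.8 TPM in the same terms and followed with 2.45 ± 0.14 (adjusted p = 1.4e-20). The ligand and receptor of the nociceptin pair were also both higher, Pnoc by 1.90 ± 0.13 (adjusted p = 1.2e-18) and Oprl1 by 1.38 ± 0.09 (adjusted p = 1.5e-18), and Oprm1 was higher by 1.59 ± 0.21 (adjusted p = 5.1e-09).

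Penk and Oprd1 were the exceptions in the hypothalamus. Penk was lower by a log2 fold change of -0.53 ± 0.12 (adjusted p = 1.0e-04), short of the fold threshold. Oprd1 had 0.08 ± 0.12 (adjusted p = 0.65), although the mean of its region means was 3.66 TPM against 5.54 TPM, since the fit averages regions on the log scale and the cerebellar lobules are low. The libraries of every member overlapped between the 2 sides. Of the 36 pathway genes, Kcnj5 (3.80 ± 0.17, adjusted p = 5.6e-25), Pomc (2.05 ± 0.18, adjusted p = 1.7e-14) and Rgs9 (1.44 ± 0.09, adjusted p = 9.7e-19) were higher and Adcy1 (-2.13 ± 0.09, adjusted p = 1.4e-26) was lower, and the mean of the Rgs9 region means in TPM went the other way, 27.6 against 29.1.

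**Figure D4:**
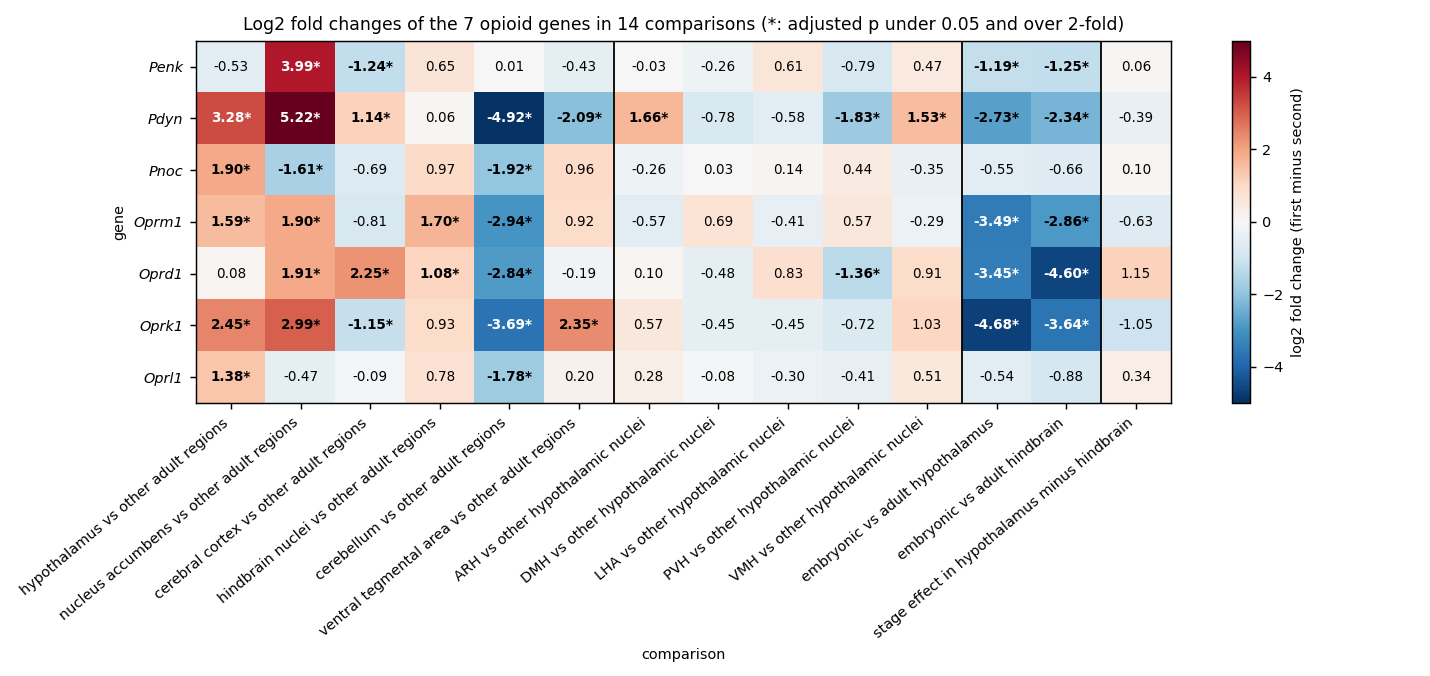
Log2 fold changes (edgeR, first group minus second) of the 7 genes (rows) in 14 comparisons (columns), with colour from blue (lower) to red (higher) and an asterisk for called genes. Pdyn had the widest range, from -4.92 in the cerebellum to 5.22 in ACB.

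Between the hypothalamic nuclei, Pdyn was the member called most often. Each nucleus also stands on the opposite side when another is compared, so these calls are not independent. In ARH against the 4 other nuclei Pdyn was higher by 1.66 ± 0.30 (adjusted p = 2.5e-05), the only member called there, where 6.90% of tested genes were called. The ARH libraries, at 104 to 107 TPM, overlapped with those of the others, 7.81 to 105 TPM, through 1 VMH library at 105 TPM. The fold changes of the other 6 members ran from -0.57 for Oprm1 to 0.57 for Oprk1, with adjusted p-values from 0.16 for Oprk1 to 0.99 for Penk. In the same comparison Pomc was higher by 6.19 ± 0.30 (adjusted p = 1.5e-22), with 554, 672 and 427 TPM in ARH. Mme, the peptidase neprilysin that degrades enkephalin, was lower at -1.70 ± 0.41 (adjusted p = 0.0014). ARH also held the pituitary markers described above, whose part in these values was not tested.

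VMH had a Pdyn fold change of 1.53 ± 0.34 (adjusted p = 0.0040), called where 1.47% of tested genes were called. This call did not hold in DESeq2 (adjusted p = 0.092), in limma on TPM (adjusted p = 0.055) or without VMH replicate 2 (1.40, adjusted p = 0.20). Oprk1 (1.03 ± 0.33, adjusted p = 0.059) and Oprl1 (0.51 ± 0.23, adjusted p = 0.24) did not pass the test. Their VMH libraries lay above all 12 libraries of the other nuclei, and the share of all genes so separated is not given here. Oprd1 had 0.91 ± 0.27 (adjusted p = 0.041), under the fold threshold, and was called without PVH replicate 1 (1.05, adjusted p = 0.026). Penk (0.47), Pnoc (-0.35) and Oprm1 (-0.29) did not pass the test. The VMH libraries also carried Hcrt, a marker of the neighbouring LHA, whose part in these values was not tested.

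PVH went the other way. Pdyn was lower there with -1.83 ± 0.45 (adjusted p = 0.0053) and Oprd1 with -1.36 ± 0.33 (adjusted p = 0.0053), where 2.03% of tested genes were called. The Oprd1 libraries, 1.97 and 1.08 TPM, lay below all 12 libraries of the other nuclei at 2.40 to 6.57 TPM. Those of Penk, 66.7 and 75.6 TPM, also lay below the others at 82.2 to 175 TPM, but Penk did not pass the test (-0.79 ± 0.29, adjusted p = 0.10). The share of all genes so separated is not given here. With 2 libraries the calls were fragile: Pdyn lost its call without PVH replicate 1 (-1.31, adjusted p = 0.44) or in limma with a pseudocount of 0.1 (-1.98, adjusted p = 0.12), and Oprd1 without PVH replicate 2 (-0.97, adjusted p = 0.31). Oprk1 (-0.72), Oprl1 (-0.41), Pnoc (0.44) and Oprm1 (0.57) did not pass the test in PVH.

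DMH and LHA had no member called by edgeR. In DMH, where 0.601% of tested genes were called, 2 of 7 members and 2002 of all 19980 genes had an unadjusted p under 0.05, the members being Pdyn (-0.78 ± 0.31) and Oprd1 (-0.48 ± 0.24), and at that p DESeq2 gave 1 member and limma 0 to 2, with none called. In LHA, where 5.05% were called, 2 of 7 members and 5963 of all 19980 genes had an unadjusted p under 0.05, the members being Oprd1 with 0.83 ± 0.24 (adjusted p = 0.0091) and Penk with 0.61 ± 0.22 (adjusted p = 0.046), both under the fold threshold, and at that p DESeq2 gave 2 members and limma 2 to 3, again with none called. The other members ran from -0.45 for Oprk1 to 0.69 for Oprm1 in DMH and from -0.58 for Pdyn to 0.14 for Pnoc in LHA.

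Other genes of the pathway separated the nuclei too. In LHA, Adcy1 (1.302 ± 0.15, adjusted p = 8.3e-10) and Mme (1.28 ± 0.33, adjusted p = 0.0036) were higher and Pomc (-1.63 ± 0.38, adjusted p = 0.0011) and Kcnj5 (-1.39 ± 0.40, adjusted p = 0.0086) lower, Kcnj5 losing its call without LHA replicate 1 (adjusted p = 0.051) or 2 (adjusted p = 0.058). PVH had higher Adcy1 (1.24 ± 0.17, adjusted p = 2.7e-07), Kcnj9 (1.09 ± 0.13, adjusted p = 1.8e-08) and Rgs4 (1.03 ± 0.22, adjusted p = 0.0014) and lower Pomc (-2.31 ± 0.48, adjusted p = 7.1e-04). Rgs4 fell under the fold threshold with a replicate block (0.98) and in limma (0.99), and Pomc was not called without PVH replicate 1 (adjusted p = 0.10). Adcy1 was lower in VMH (-1.18 ± 0.20, adjusted p = 1.4e-04) and in ARH (-1.98 ± 0.18, adjusted p = 2.6e-12), Rgs9 was higher in ARH (1.19 ± 0.19, adjusted p = 1.7e-06), and Pomc was lower in DMH (-1.96 ± 0.35, adjusted p = 3.2e-04). Pomc was at 427 to 672 TPM in ARH and at 2.65 to 17.4 TPM in the 11 other hypothalamic libraries. The lower Pomc values of LHA, PVH and DMH each have ARH on the opposite side, and its part in them was not tested.

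The 3 cortical areas against the 15 other adult regions gave a split between the receptors. Oprd1 held 4.24, 12.6 and 16.0 TPM as lowest, median and highest of 9 libraries and was higher by 2.25 ± 0.12 (adjusted p = 1.3e-22) and Oprk1 lower with -1.15 ± 0.21 (adjusted p = 3.2e-06). Of the precursors, Penk was lower with -1.24 ± 0.14 (adjusted p = 8.2e-11) and Pdyn higher with 1.14 ± 0.20 (adjusted p = 3.0e-06), so that 4 of 7 members were called where 16.1% of tested genes were called. For Pdyn the mean of region means in TPM went the other way, 15.8 against 35.6, because ACB, ARH and VMH weigh more in a plain mean, and its fold change fell to 0.78 in limma on TPM.

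Pnoc (-0.69 ± 0.17), Oprm1 (-0.81 ± 0.28) and Oprl1 (-0.09 ± 0.12) were not called in cortex, and Oprm1 passed without ENT replicate 1 (-1.01, adjusted p = 0.0036). Penk was uneven within the cortex, at 24.1 to 29.1 TPM in ACA and 71.4, 90.5 and 165 TPM in ENT. Of the 36 pathway genes, 7 were higher and 1 lower, with a median log2 fold change of 0.37 against -0.03 over all genes. Rgs4 rose by 2.46 ± 0.10 (adjusted p = 4.7e-28), Adcy1 by 1.54 ± 0.08 (adjusted p = 7.6e-24) and the convertase Pcsk2 by 1.23 ± 0.06 (adjusted p = 3.2e-25), and Kcnj5 was lower with -3.76 ± 0.34 (adjusted p = 2.9e-14).

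In the hindbrain nuclei DVC, NTS and PB, which relay taste and visceral signals, 2 of 7 members were called, both higher, where 7.84% of tested genes were called and 5.17% were called higher. Oprm1 held 3.94, 7.59 and 22.0 TPM as lowest, median and highest of 10 libraries and was higher by 1.70 ± 0.22 (adjusted p = 5.3e-09) and Oprd1 by 1.08 ± 0.13 (adjusted p = 3.2e-10), the latter at 0.75 in limma on TPM. The highest Oprm1 value was that of PB replicate 3, where the short non-coding transcript took 12.1 TPM. Pnoc (0.97 ± 0.14), Oprk1 (0.93 ± 0.17), Oprl1 (0.78 ± 0.10) and Penk (0.65 ± 0.12) had adjusted p-values from 8.6e-09 to 6.3e-06 and stayed under the fold threshold, and Pdyn had 0.06 ± 0.20 (adjusted p = 0.88). The mean of region means of Oprk1 was 5.66 in these nuclei and 7.34 TPM elsewhere, and that of Penk was 217 and 239 TPM, where the other side includes ACB. Of the pathway, Adcy1 (-1.39 ± 0.09, adjusted p = 3.0e-18) and Kcnj9 (-1.19 ± 0.07, adjusted p = 9.3e-20) were lower and none was called higher.

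In the cerebellum 6 of 7 members were called lower, where 15.9% of tested genes were called and 8.53% were called lower. Pdyn was lower with -4.92 ± 0.24 (adjusted p = 2.5e-24), Oprk1 with -3.69 ± 0.19 (adjusted p = 1.8e-23) and Oprm1 with -2.94 ± 0.25 (adjusted p = 7.9e-15). Oprd1 was lower with -2.84 ± 0.14 (adjusted p = 4.6e-24), Pnoc with -1.92 ± 0.14 (adjusted p = 3.3e-17) and Oprl1 with -1.78 ± 0.10 (adjusted p = 5.3e-22). Penk did not follow, with 0.01 ± 0.10 (adjusted p = 1). Its 18 cerebellar libraries held 69.4, 182 and 209 TPM as lowest, median and highest, where those of Pdyn held 0, 0.809 and 5.51 TPM.

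CENT2 replicate 1 stood above the other 3 libraries of its group in all members but Penk, with Oprl1 at 34.4 TPM against 10.1 to 14.7, Oprm1 at 2.48 against 0 to 1.22 and Oprk1 at 2.79 against 0.0736 to 0.581. Cerebellar markers (Pcp2 and Gabra6) summed to 259 to 2691 TPM in the 18 libraries and to 0.19 to 45.7 TPM in the other 39. Of the pathway, 12 genes were lower, among them Rgs4 (-2.73 ± 0.11, adjusted p = 2.2e-28) and Kcnj5 (-1.92 ± 0.23, adjusted p = 1.7e-10), and Adcy1 was higher (2.60 ± 0.07, adjusted p = 7.3e-37). In CBN, the choroid plexus marker Ttr was at its highest, and the summed choroid plexus markers reached 12514 TPM in the cerebellum.

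In VTA, the dopamine cell group of the midbrain, Oprk1 was higher by 2.35 ± 0.23 (adjusted p = 2.8e-12) and Pdyn lower with -2.09 ± 0.44 (adjusted p = 1.4e-04), 2 of 7 members where 10.5% of tested genes were called. Receptor and ligand precursor of the kappa pair were thus high and low in the same tissue. Oprk1 held 7.18, 13.7 and 12.97 TPM and Pdyn 0.337, 2.57 and 1.71 TPM. Without replicate 1, the library rich in mitochondrial transcripts, both were still called and Pnoc passed too (1.27, adjusted p = 1.3e-04), from 0.96 with it. Oprm1 had 0.92 ± 0.38 (adjusted p = 0.048), while the mean of its region means went the other way, 3.45 TPM in VTA against 6.19 elsewhere, and Penk (-0.43), Oprd1 (-0.19) and Oprl1 (0.20) did not pass the test. Of the pathway, Mme (1.47 ± 0.28, adjusted p = 2.2e-05) and Kcnj5 (1.31 ± 0.31, adjusted p = 6.1e-04) were higher and Adcy1 (-1.68 ± 0.17, adjusted p = 6.2e-12) lower, but Mme (0.61) and Kcnj5 (0.15) were not called in limma on TPM, and the mean TPM of Kcnj5 went the other way, 1.31 against 2.18. Of all calls in this comparison, 65.4% were higher by edgeR and 15.5% in limma on TPM, in which the median log2 fold change of all genes shifted by -0.39.

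Embryonic against adult hypothalamus asked which members are already expressed at E14.5. Penk, Pdyn and all 3 classical receptors were lower in THy-PHy, 5 of 7 members, where 38.2% of tested genes were called, 3996 of 19980 being lower. Oprk1 was lower with -4.68 ± 0.45 (adjusted p = 2.5e-13), with 0.378, 0.633 and 0.352 TPM against 5.98 to 21.8 TPM in 14 adult libraries. Oprm1 was lower with -3.49 ± 0.60 (adjusted p = 1.2e-06), Oprd1 with -3.45 ± 0.35 (adjusted p = 1.5e-12), Pdyn with -2.73 ± 0.41 (adjusted p = 4.9e-08) and Penk with -1.19 ± 0.25 (adjusted p = 3.8e-05). Libraries of these 5 did not overlap between the stages, and the share of all genes without overlap is not given here.

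The nociceptin pair differed less between the stages in hypothalamus. Oprl1 was at 78.1, 51.6 and 45.2 TPM in THy-PHy and had -0.54 ± 0.21 (adjusted p = 0.019), and Pnoc was at 19.5, 9.98 and 15.3 TPM with -0.55 ± 0.28 (adjusted p = 0.075). Neither was called, and both overlapped with the adult libraries. Neuron markers (Snap25, Syt1, Rbfox3) summed to 211 to 248 TPM in THy-PHy and to 1030 to 2051 TPM in the adult nuclei, and oligodendrocyte markers to 31.2 to 37.1 against 696 to 10072 TPM. Their part in the differences was not tested.

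**Figure D5:**
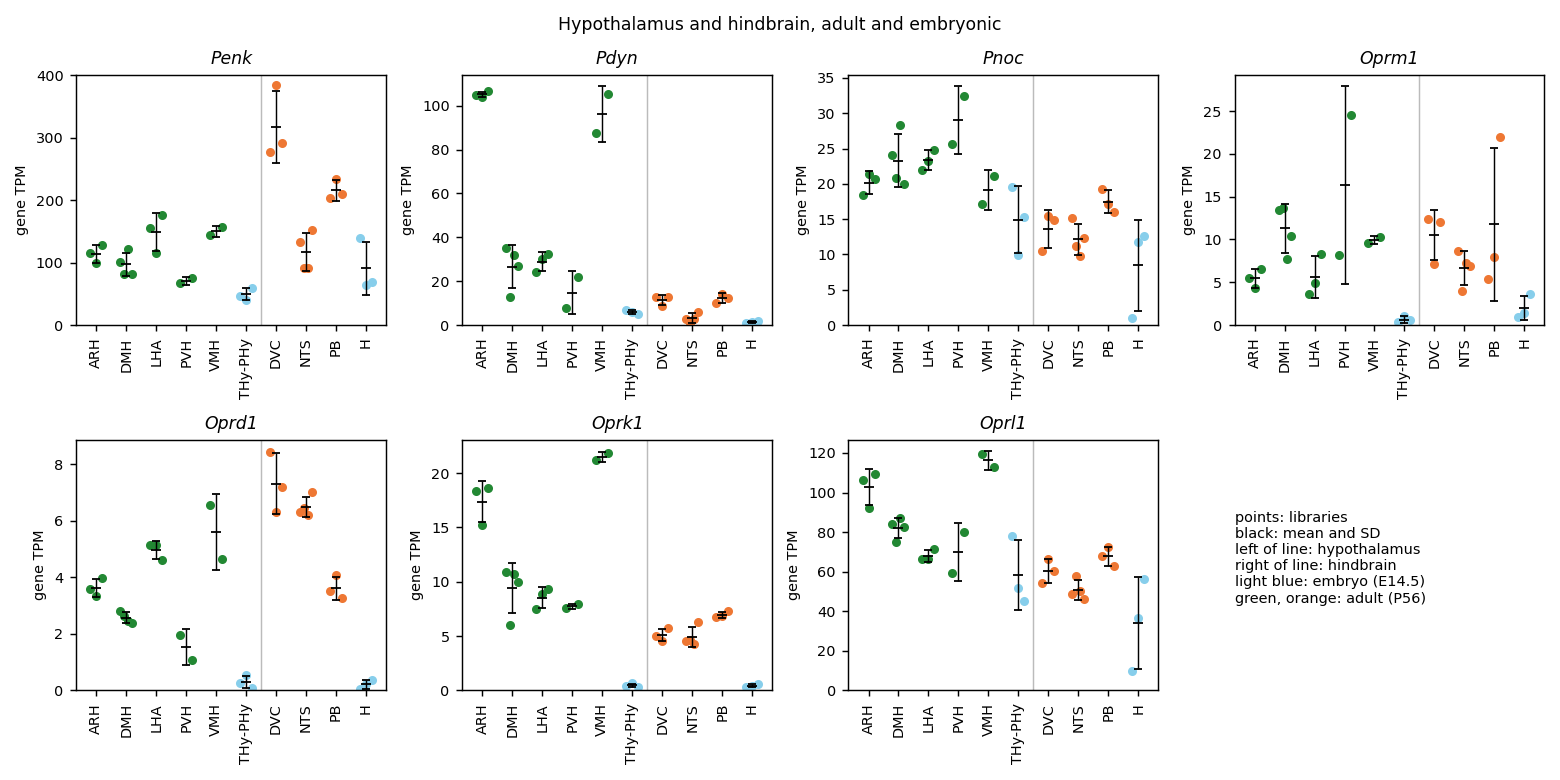
Gene TPM of the 7 genes in hypothalamus (left of the line) and hindbrain (right), with adult libraries in green and orange, embryonic libraries in light blue, and the mean and SD in black. Oprm1, Oprd1 and Oprk1 were lower in the embryonic libraries of both tissues, without overlap, while Oprl1 and Pnoc overlapped.

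In the hindbrain the same 5 members were called lower in the embryo, where 44.0% of tested genes were called, 4207 of 19980 being lower. Oprd1 was lower with -4.60 ± 0.38 (adjusted p = 1.4e-15), Oprk1 with -3.64 ± 0.45 (adjusted p = 4.9e-10), Oprm1 with -2.86 ± 0.57 (adjusted p = 1.7e-05), Pdyn with -2.34 ± 0.49 (adjusted p = 3.3e-05) and Penk with -1.25 ± 0.25 (adjusted p = 2.1e-05). Of these, only the 3 classical receptors did not overlap, again without the share of all genes beside it. Oprl1 (-0.88 ± 0.22, adjusted p = 3.7e-04) and Pnoc (-0.66 ± 0.29, adjusted p = 0.043) stayed under the fold threshold and passed it in limma on TPM, at -1.09 and -1.23. In H replicate 1, Pnoc was at 0.997 TPM and Oprl1 at 10.01 TPM, the lowest of the 3. Pnoc was called without H replicate 2 (-1.08, adjusted p = 0.0064) and was at -0.21 without H replicate 1 (adjusted p = 0.51). Oprl1 was called without H replicate 3 (-1.19, adjusted p = 5.5e-05) and was at -0.54 without H replicate 1 (adjusted p = 0.028).

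Other cell types moved with stage in the hindbrain too. Neuron markers summed to 171 to 273 TPM in H and to 2196 to 2884 TPM in the adult nuclei, oligodendrocyte markers to 14.6 to 29.4 against 7618 to 11498 TPM, and choroid plexus markers to 578 to 1931 TPM against 2.67 to 10526 TPM with an adult median of 5.84. Their part in the values of the members was not tested.

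The counts behind the embryonic receptors were small: medians of 9 for Oprm1, 8 for Oprd1 and 18 for Oprk1 over 9 libraries, against 75, 144 and 180 in the adult. The values are therefore close to the limit that counting sets, while Oprl1 had a median of 1168 in the embryo. A test of the difference between the 2 tissues (the stage effect in hypothalamus minus that in hindbrain) called 0 of 7 members by edgeR, where 9.84% of tested genes were called. Oprd1 came closest with 1.15 ± 0.53 (adjusted p = 0.096), the 1 member of 7 with an unadjusted p under 0.05, as 8076 of all 19980 genes had, and at that p DESeq2 gave 1 member and limma 1 to 2, with none called. It was called without H replicate 3 (1.59, adjusted p = 0.049) or THy-PHy replicate 3 (1.54, adjusted p = 0.028). The other members ran from -1.05 for Oprk1 to 0.34 for Oprl1.

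Most genes of the opioid pathway were lower in the embryo as well. Of 36, 23 were lower and 4 higher in hypothalamus, with a median log2 fold change of -1.62, and 22 were lower and 3 higher in hindbrain, with a median of -1.46. Kcnj9 was lower in both, with -3.76 ± 0.16 (adjusted p = 1.4e-26) and -3.72 ± 0.18 (adjusted p = 3.5e-25). So were Adcy8 (-3.73 and -1.89) and Grk3, a kinase that switches receptors off (-1.72 and -1.59). Pomc was higher in embryonic hypothalamus by 2.14 ± 0.27 (adjusted p = 1.1e-09). It was lower in embryonic hindbrain with -1.42 ± 0.50 (adjusted p = 0.011), but was not called there without H replicate 2 (adjusted p = 0.055). The difference between the 2 tissues was itself called for Pomc (3.56 ± 0.58, adjusted p = 5.1e-06). The mean of region means in TPM went the other way in hypothalamus, 71.7 in the embryo against 115 in the adult, with overlapping libraries. The adult hypothalamus in this comparison gives ARH, the main site of Pomc, the weight of 1 nucleus in 5.

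Further named genes followed the same pattern with few exceptions. In embryonic hypothalamus the convertase Pcsk1 (-3.53 ± 0.21, adjusted p = 2.7e-21), Ace (-2.68 ± 0.32, adjusted p = 1.7e-10), Rgs17 (-2.48 ± 0.21, adjusted p = 2.1e-15) and the G protein subunit Gnai1 (-1.998 ± 0.12, adjusted p = 5.5e-21) were lower. In embryonic hindbrain the convertase inhibitor Pcsk1n (-3.77 ± 0.43, adjusted p = 3.2e-11) and Gnb5 (-2.08 ± 0.12, adjusted p = 4.4e-22) were lower, while the peptidase Anpep (2.63 ± 0.28, adjusted p = 5.2e-12) and Gnai3 (1.71 ± 0.07, adjusted p = 8.4e-27) were higher. The stage effect also differed between the tissues for Mme (-1.89 ± 0.50, adjusted p = 0.0029), Adcy8 (-1.84 ± 0.22, adjusted p = 1.2e-08), Kcnj3 (-1.58 ± 0.23, adjusted p = 1.0e-06) and Rgs20 (-1.33 ± 0.18, adjusted p = 1.5e-07). The Mme value was -0.10 without H replicate 1 (adjusted p = 0.95) and -0.72 in limma (adjusted p = 0.30), and was not called in either.

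Across the 18 adult regions the members did not share 1 pattern. As a description, with regions sharing mice, Pearson's r of log2(TPM + 1) was 0.89 between Pnoc and its receptor Oprl1, 0.84 between Oprm1 and Oprk1 and 0.78 between Pdyn and its receptor Oprk1. Such values were not particular to a precursor and its own receptor. Oprl1 had 0.81 to Oprm1 and 0.79 to Oprk1, and Pnoc had 0.74 to Oprm1. The lowest value of all pairs was -0.21, between Penk and Pnoc. Penk was unlike its receptors, with 0.28 to Oprm1 and -0.03 to Oprd1, and had 0.27 to Pdyn. Penk was high in cerebellar lobules, where the means of both receptors were at or under 1.22 TPM apart from Oprd1 in FL, and low in ACA, where Oprd1 was highest.

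The genes whose group means over the 22 brain groups were most like each member, among 18721 genes, were Limch1 (r = 0.863), Nt5e (0.843) and Tmc3 (0.828) for Penk, and Rab36 (0.922), 5330417C22Rik (0.913) and Gabrg3 (0.912) for Pdyn. For Pnoc they were Fads2 (0.911), Unc119 (0.904) and Supt3 (0.894). For the receptors they were Tacr1 (0.925), Trhr (0.903) and Evpl (0.900) with Oprm1, Dact2 (0.928), Klhl2 (0.919) and Mast3 (0.918) with Oprd1, Htr4 (0.940), Qpct (0.938) and Gm1604a (0.920) with Oprk1, and A730017C20Rik (0.963), Magee2 (0.962) and Dpysl2 (0.941) with Oprl1. With a rank correlation in its place, the nearest gene stayed the same for Pdyn and Pnoc and changed for the other 5 members. The groups share mice and the choice is the largest of many values, so no p is given.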

How the data were processed

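RNA sequencing of 70 mouse libraries was analysed. Per the study's methods, the authors sequenced strand-specific mRNA libraries as single reads, quantified them with Kallisto against GRCm38 transcripts and summed values per gene. The labels list CASAVA 1.8.2. The Ensembl release and the strand setting are not given in the sources used here. The deposited TPM table holds length-scaled values per gene, and the deposited estimated counts per transcript were summed here to genes through GENCODE M21 (107987 of 109282 transcripts matched) and rounded to whole numbers.

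Groups followed the labels. Levels are TPM with the SD. Comparisons used edgeR 4.0.16 in R 4.3.3 (quasi-likelihood test, TMM, filterByExpr, all 70 libraries, 24 groups) with Benjamini-Hochberg adjustment over 19980 genes. Alternatives were DESeq2 1.42.0, limma 3.58.1 on log2(TPM + 0.5) or log2(TPM + 0.1), no filter, a replicate block, no mESC libraries, and leaving out each library in turn. The runs without a library kept the gene filter and the trended dispersion of the fit on all 70 libraries. The library left out therefore still contributed to both. The step was tested on simulated data for the hypothalamus comparison: of 50 genes raised by a log2 fold of 2, 50 were called, and of 50 lowered by 2, 48. Of 50 raised by 1, 24 were called, a true change that lies at the threshold itself. The simulation gave all genes the same dispersion and no other differences between regions, unlike these data. It therefore checks the working of the step and not its error rates here. Named pathway genes were taken by a fixed rule, the called gene with the largest absolute fold change of each subgroup. The members, lists and tests were chosen with earlier results of these data known. In all 74 pairs of replicates the spread exceeded sampling noise (lowest mean chi-square over genes 2.51). Depth was 9074581 to 22229582 counts per library, and counting error limits the receptors in embryonic and mESC libraries. Of the markers searched, 1 is not reported here.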

Additional observations from a re-analysis of the deposited data

Results flagged for a closer look

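In groups of 4 libraries, 35 sets of values of the 7 genes were examined for a library far from the other 3, and chance alone marks about 1 in 20 such sets. Oprm1 in CUL4-5 replicate 1 was at 2.13 TPM, where the other libraries held 0.2501 to 0.438 TPM, a gap of 0.900 of the whole range. Its estimated count was 7, against 2 to 5 in the others. Oprl1 in FL replicate 3 was at 14.8 TPM, below the other libraries at 21.7 to 23.1 TPM, a gap of 0.831 of the range. The causes were not tested.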

How the results depend on the processing

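No called member changed direction in any alternative run. Over the alternatives that kept all replicates, 654 member values kept direction and side of the threshold, 10 lost a call, 6 gained one and 16, none of them called, changed sign. In limma with a pseudocount of 0.5, with or without a filter, the log2 fold change became -0.048 for Oprd1 in hypothalamus, -0.24 for Pdyn in hindbrain nuclei, -0.57 for Oprl1 and -0.14 for Oprm1 in VTA, 0.0374 for Penk in ARH and 0.25 for Oprm1 in VMH. With 0.1 it became -0.58 for Oprl1 in VTA, 0.0378 for Penk in ARH and 0.27 for Oprm1 in VMH, and DESeq2 gave -0.0008 for Penk in the difference between tissues. The cause was not tested.

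Counts of called genes moved in limma from 1767 to 1062 (1059 without a filter) in hypothalamus, from 1566 to 886 (876) in hindbrain nuclei, from 2105 to 3163 in VTA and from 294 to 185 in VMH, the last 2 with a pseudocount of 0.1. The share of calls that were higher moved from 65.4% to 13.3% to 15.5% in VTA, from 66.0% to 55.4% in hindbrain nuclei, from 74.2% to 57.1% to 62.6% in DMH, from 45.9% to 32.6% to 34.4% in LHA, from 53.7% to 31.9% in VMH and from 35.2% to 45.6% to 47.2% in the difference between tissues. The highest mean of Oprd1 became 15.2 TPM and that of Oprl1 125 TPM without mitochondrial genes. Over coding transcripts, an alternative added after seeing the data, Oprk1 became 19.96 and Oprl1 82.8 TPM.

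Leaving out 1 library at a time gave 211 to 424 calls in PVH and 96 to 322 in VMH. Signs changed within -0.0889 to 0.0201 for Penk and -0.0002 to 0.23 for Oprd1 in ARH, -0.0177 to 0.0298 for Penk in cerebellum, -0.0701 to 0.10 for Pnoc in DMH, -0.12 to 0.17 for Pdyn in hindbrain nuclei, -0.0278 to 0.16 for Oprd1 in hypothalamus, -0.10 to 0.49 for Oprl1 in VTA, and -0.23 to 0.57 for Penk and -0.34 to 0.52 for Pnoc in the difference between tissues. Libraries of the other adult regions were not left out, apart from VTA replicate 1. Same-numbered libraries of different groups showed little shared deviation (median r 0.0068 over 669 pairs). Of these pairs 6.73% had r over 0.1, against 5.05% of 1603 pairs with other numbers. Such values cannot exclude that same-numbered libraries share mice or a batch. The replicate block gave 1764 calls in hypothalamus and 3232 in cortex and changed no call of a member.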
